A study of Mus musculus with 6 samples.

Results

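Hox genes are the homeobox transcription factor genes that lie in the clusters HoxA, HoxB, HoxC and HoxD. Probes for them were taken from the arrays by gene name, as every non-control probe named Hoxa, Hoxb, Hoxc or Hoxd followed by a number. This rule found 45 probes for 39 Hox genes, among 55681 probes and 22437 named genes on the array. It used no measured value. The accession listed with each probe led to the same gene for all 45, with 0 mismatches.

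The measurements came from aortic arches of female mice with the strain label C57BL/6, 1 arch per array. All recipients were Mir21+/+ and had been irradiated with 2 fractions of 5 Gy within 4 h. In the BM Mir21 KO group (n = 3) they then received bone marrow from Mir21–/– donors, and in the BM Mir21 WT group (n = 3) bone marrow from Mir21+/+ donors. High-fat feeding started 3 weeks after irradiation and went on for 12 weeks in both groups. The labels name no other allele and no age. Only cells descended from the transplant can lack Mir21, so the vessel wall cells of the recipients kept the gene in both groups. The array has 0 probes named Mir21 or Mir21a, so the knockout could not be checked here.

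Hox proteins bind DNA, mostly together with cofactors of the TALE homeobox family, and give cells their position along the head-to-tail axis of the embryo. Genes of the same number in different clusters are paralogues, and low numbers lie at the 3′ end of a cluster, are switched on early and reach far towards the head, while high numbers lie at the 5′ end and are used in the rear of the trunk, the limbs and the urogenital tract. This parallel between order on the chromosome and order along the body is called collinearity. The aortic arch is built largely from pharyngeal arch arteries and cardiac neural crest, which arise at the level of the hindbrain and neck, and adult arteries are known to keep regional differences in Hox expression. Whether donor marrow changes that positional code in the arch is the comparison made here.

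Retinoic acid is a known inducer of the 3′ Hox genes and acts through receptors that bind the half-site AGGTCA. The start-site windows of 4 detected genes, 1 per cluster, are shown because each holds this half-site on either strand. They were chosen after the motif search, Hoxb4, Hoxc4 and Hoxd4 as paralogues and Hoxa5 for its cluster. Each is the 300-base RefSeq window around the gene's start on GRCm38.p6, printed 5′ to 3′ on the gene's strand. Capitals mark matches to that half-site on either strand and, in Hoxd4, also matches to the caudal motif TTTATNG.
Hoxa5, chr6:52204538-52204837, minus strand: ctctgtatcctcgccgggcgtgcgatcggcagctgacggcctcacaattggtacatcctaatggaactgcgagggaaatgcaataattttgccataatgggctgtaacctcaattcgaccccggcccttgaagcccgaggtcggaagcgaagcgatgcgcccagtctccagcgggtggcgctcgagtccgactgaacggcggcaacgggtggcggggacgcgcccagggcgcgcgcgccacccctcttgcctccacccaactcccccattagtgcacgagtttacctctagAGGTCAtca
Hoxb4, chr11:96318017-96318316, plus strand: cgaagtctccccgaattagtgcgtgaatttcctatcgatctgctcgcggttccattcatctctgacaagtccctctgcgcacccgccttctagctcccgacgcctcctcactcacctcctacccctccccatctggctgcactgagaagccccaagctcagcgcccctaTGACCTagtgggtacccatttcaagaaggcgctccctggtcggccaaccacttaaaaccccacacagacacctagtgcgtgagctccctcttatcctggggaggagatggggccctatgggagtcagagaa
Hoxc4, chr15:103034145-103034444, plus strand: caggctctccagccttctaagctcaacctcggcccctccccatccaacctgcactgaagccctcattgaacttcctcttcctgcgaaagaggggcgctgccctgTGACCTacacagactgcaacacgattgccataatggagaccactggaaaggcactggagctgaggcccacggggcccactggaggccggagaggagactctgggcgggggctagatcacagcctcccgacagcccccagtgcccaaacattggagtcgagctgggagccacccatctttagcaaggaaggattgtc
Hoxd4, chr2:74721728-74722027, plus strand: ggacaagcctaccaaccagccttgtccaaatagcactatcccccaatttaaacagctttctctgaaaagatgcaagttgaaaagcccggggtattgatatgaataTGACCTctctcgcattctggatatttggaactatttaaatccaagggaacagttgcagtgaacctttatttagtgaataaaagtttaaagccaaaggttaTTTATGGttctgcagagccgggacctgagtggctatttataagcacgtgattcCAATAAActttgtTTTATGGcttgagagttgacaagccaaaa

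The RefSeq table gave 24 windows for 22 of the 39 Hox genes. AGGTCA was found in the windows of 7 of these 22 genes (Hoxa5, Hoxb4, Hoxc4, Hoxd3, Hoxd4, Hoxd8 and Hoxd10) and in 16.3% of all 32851 windows. TTTATNG was found for 2 genes, Hoxb8 and Hoxd4, and in 10.9% of all windows. The composite motif of Pbx and Hox proteins, TGATNNAT, was found for 4 genes (Hoxa2, Hoxb1, Hoxb8 and Hoxd11) and in 8.85% of all windows. The homeodomain palindrome TAATTA was found for Hoxd11 only, against 5.29% of all windows. Both strands were searched, and matches of different motifs may overlap. The Hox windows held a median of 14.5 CpG dinucleotides, against 7 over all windows, and had a median GC content of 57.7%, against 52.7%. A match describes the letters of the window and does not show that a factor binds there.

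Values below are log2 levels, that is, log2 of a probe's processed signal relative to the 75th percentile of its array, and differences are KO minus WT on the same log2 scale. A probe counted as detected on an array where the scanner software flagged it as well above background, and a gene counted as detected in a group where at least 1 of its probes was flagged on all 3 arrays. Brightness differs between probes for reasons other than RNA amount, so levels are compared between arrays and never between genes. The 75th percentile of signal ran from 239 to 386 on the KO arrays and from 340 to 407 on the WT arrays. Between 66.4% and 74.4% of spots were well above background, with the lowest share on KO 3. All arrays shared 1 slide and 1 scan, with KO arrays in slide row 2 and WT arrays in row 1, so slide row and donor marrow cannot be told apart.

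Most Hox genes of paralogue groups 1 to 7 were detected in the arch, and few of groups 8 to 13 were. Of the 39 genes, 20 were detected on all KO arrays and 23 on all WT arrays. All 20 of the KO set were in the WT set. Among all 22437 named genes on the array, 74.4% were detected on all KO arrays and 77.6% on all WT arrays. The plot of detection by paralogue group shows where the detected genes lie.

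**Figure D1:**
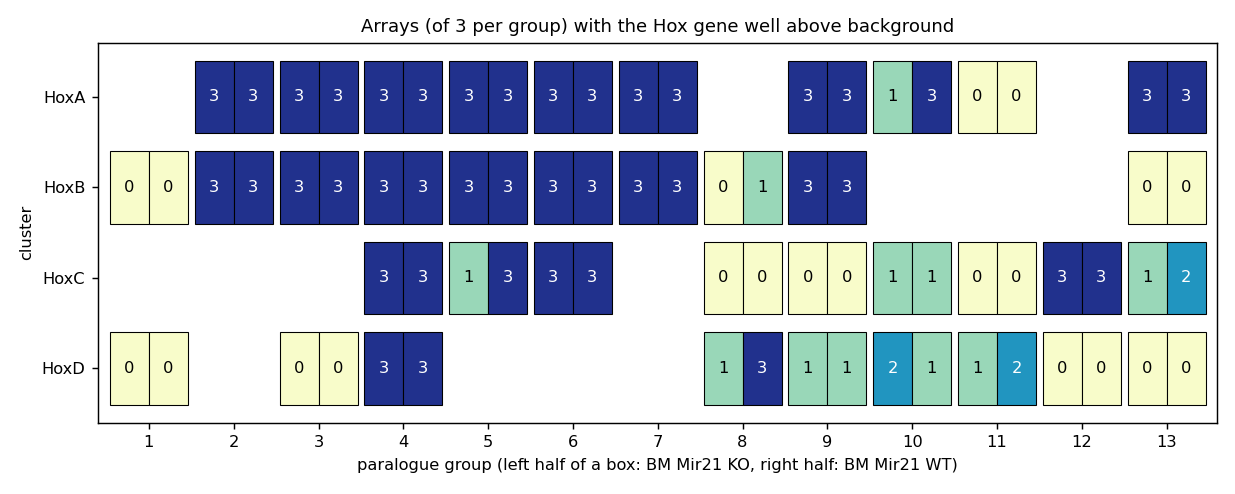
Number of arrays, of 3 per group, on which 38 of the 39 Hox genes were well above background, by cluster (rows) and paralogue group (columns). The left part of a box is BM Mir21 KO and the right part BM Mir21 WT, and a gene with several probes is shown by its most often flagged probe. Detection on every array is nearly complete between paralogue groups 2 and 7 and patchy from group 8 onwards.

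In paralogue groups 1 to 4, 9 of 12 genes were detected in KO arches and the same number in WT arches. That is near the share over all named genes, 74.4% in KO and 77.6% in WT arches. In groups 5 to 7 the counts were 7 of 8 in KO and 8 of 8 in WT. In groups 8 and 9 they were 2 of 7 in KO and 3 of 7 in WT, and in groups 10 to 13 they were 2 of 12 in KO and 3 of 12 in WT. Group 4, which has a gene in every cluster, was detected in full in both donor groups, as Hoxa4, Hoxb4, Hoxc4 and Hoxd4. Groups 2, 6 and 7 were also complete in both donor groups.

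The clusters differed as well. HoxA gave 9 of 11 genes in KO and 10 of 11 in WT arches, and HoxB 7 of 10 in both. HoxC gave 3 of 9 in KO and 4 of 9 in WT. HoxD gave 1 of 9 in KO and 2 of 9 in WT. On mm9, the build of the probe positions in the files, the HoxA probes span 104 kb of chromosome 6, the HoxB probes 171 kb of chromosome 11 (96057854 to 96228510), the HoxC probes 108 kb of chromosome 15 (102759058 to 102867272) and the HoxD probes 93.8 kb of chromosome 2 (74509248 to 74603059). Whether a probe lies in a coding exon or an untranslated region was not analysed here.

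A probe printed several times counted as well above background on an array where most of its spots were flagged. By that rule 10 of the 39 genes were detected on no array. Of these, 5 were in paralogue groups 10 to 13, 2 in groups 8 and 9 and 3 in groups 1 to 4. The 10 genes were Hoxa11, Hoxb13, Hoxc8, Hoxc9, Hoxc11, Hoxd12 and Hoxd13, and from the 3′ end Hoxb1, Hoxd1 and Hoxd3. Hoxa11, which patterns the forearm and the uterus, is printed 10 times on each array, and 3 of its 60 spot readings were well above background. Hoxb1, which specifies the fourth rhombomere of the hindbrain, is also printed 10 times, and 0 of its 60 readings were. Hoxb13 and Hoxd13 act in the hindgut, the urogenital tract and the digits.

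A further 6 genes were flagged on some arrays but on all 3 of neither group. Hoxb8 was flagged on WT 3 only, where its log2 level was -3.69. Hoxd9 was flagged on KO 1 and WT 1, Hoxc10 on KO 1 and WT 2, and Hoxd10 on KO 1, KO 2 and WT 1. Hoxc13, known for hair formation, was flagged on KO 1, WT 1 and WT 2. Hoxd11 was flagged on KO 1, WT 1 and WT 3 by one or other of its probes. KO 1 is thus among the flagged arrays for 5 of these 6 genes, and WT 1 for Hoxc13, Hoxd9, Hoxd10 and Hoxd11. Both arrays had the highest shares of spots well above background, 74.2% on KO 1 and 74.4% on WT 1.

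Hoxa13 and Hoxc12 were detected from the 5′ end, apart from the block of detected genes in groups 1 to 7. The Hoxa13 result rests on 1 of its probes. The probe at 52208856 to 52208915 of chromosome 6 was well above background on all 6 arrays, while a second Hoxa13 probe at 52208980 to 52209039 was flagged on KO 2 only. Hoxc12 has a single probe, and its neighbours Hoxc11 and Hoxc13 on either side were flagged on no array and on 3 arrays.

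Counts of detected Hox genes by array were 27, 22 and 20 on KO 1, KO 2 and KO 3 and 27, 25 and 25 on WT 1, WT 2 and WT 3. The order of the KO arrays follows their share of spots well above background, which was 74.2%, 70.3% and 66.4%. The 3 genes detected in full in WT arches but not in KO arches, Hoxa10, Hoxc5 and Hoxd8, were each flagged on 1 KO array. Hoxc5 and Hoxd8 were flagged on KO 1 and Hoxa10 on KO 2. The part of signal brightness in these counts was not tested.

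No Hox probe passed the adjusted test between KO and WT arches. Of the 45 probes, 25 for 23 genes were bright enough to be tested, and 0 of 25 had an adjusted p below 0.05 (limma, Benjamini-Hochberg over 38339 probes), where 0.00261% of all tested probes did. The smallest adjusted p of a Hox probe was 0.438. At an unadjusted p below 0.05, 2 Hox probes were higher in KO arches, among them Hoxa13, against 4.44% of all tested probes, and 5 were lower (Hoxa5, Hoxa7, Hoxa10, Hoxb9 and Hoxc5), against 4.27%. The difference lay below 0 for 16 of 25 Hox probes, against 46.8% of all, and the median difference was -0.15, against 0.02 over all tested probes. The 25 probes passed a filter that a gene could meet in 1 group alone, and 3 of them did so in WT only. These were the probes of Hoxa10, Hoxc5 and Hoxd8, for which the filter itself favours lower values in KO arches.

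**Figure D2:**
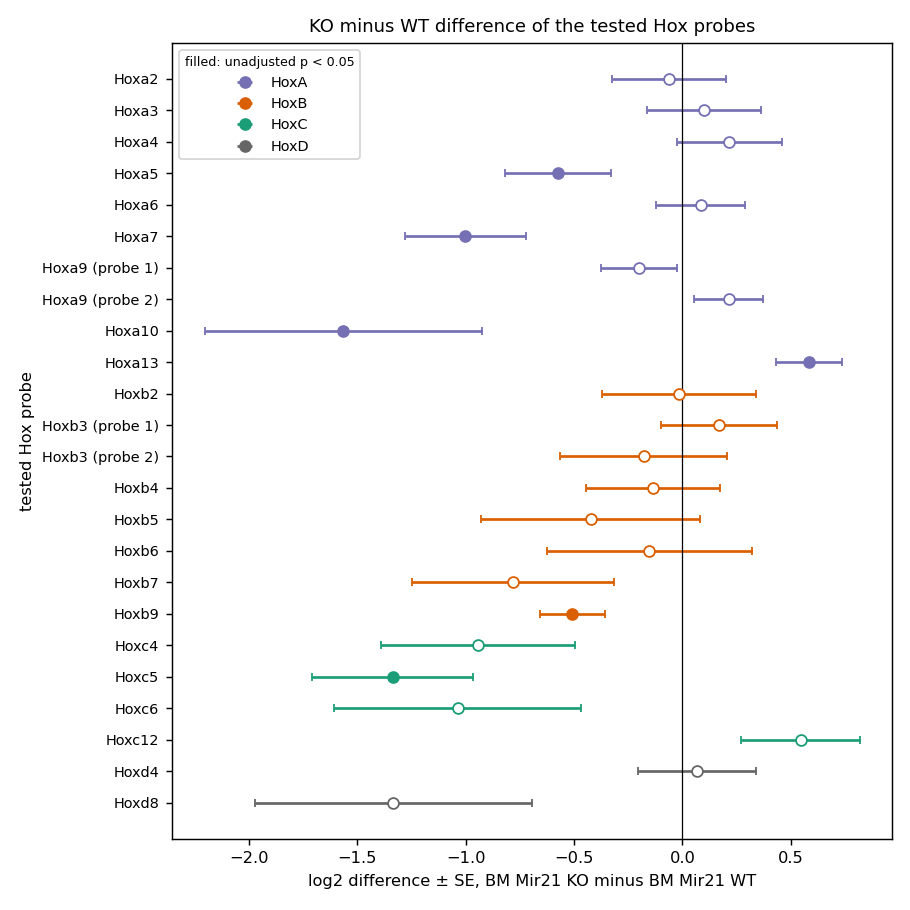
Difference in log2 level, BM Mir21 KO minus BM Mir21 WT, for 24 of the 25 tested Hox probes in cluster order, with its standard error from limma (n = 3 arrays per group). Filled points have an unadjusted p below 0.05 and none has an adjusted p below 0.05. The probes of Hoxc4, Hoxc5 and Hoxc6 lie left of 0 and those of Hoxa13 and Hoxc12 right of it.

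The genes of paralogue groups 1 to 3 act in the hindbrain and the pharyngeal arches. Values after ± are standard errors from limma unless said otherwise. Hoxa2, which gives the second pharyngeal arch its identity, had log2 levels of -1.03, -0.63 and -0.74 on the KO arrays and -1.28, -0.33 and -0.61 on the WT arrays. The KO values lay inside the range of the WT values, and the difference was -0.06 ± 0.27. Its paralogue Hoxb2 had log2 levels of 0.83, 2.04 and 2.28 on the KO arrays, against 1.76, 1.76 and 1.68 on the WT arrays. Here the WT arrays were nearly equal, while KO 1 lay below them and the other KO arrays above them.

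Hoxa3 is needed for the thymus, the parathyroids and the third arch artery that becomes the carotid. Its log2 levels were 2.68, 2.96 and 3.56 on the KO arrays and 2.68, 3.23 and 2.98 on the WT arrays, with a difference of 0.10 ± 0.26. The groups overlapped. A second Hoxa3 probe, listed for another transcript, was flagged only on KO 2 and WT 1. Hoxb3 had log2 levels of -1.87, -0.79 and -0.21 on the KO arrays and -0.92, -0.69 and -0.73 on the WT arrays at its brighter probe. Its probes differed by -0.18 ± 0.38 and 0.17 ± 0.27, so their signs disagree within their errors.

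The paralogues of group 4 specify the neck vertebrae, and Hoxb4 is also known to expand blood stem cells. Hoxa4 had log2 levels of -1.05, -1.27 and -0.96 on the KO arrays and -1.78, -0.90 and -1.24 on the WT arrays. Hoxb4 (chromosome 11, 96182885 to 96182944) had 0.91, 1.87 and 2.16 on the KO arrays and 1.83, 1.79 and 1.73 on the WT arrays. Both groups overlapped for both genes, and KO 1 was the lowest array for Hoxb4, as it was for Hoxb2.

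Hoxc4 had log2 levels of -2.72, -3.96 and -3.79 on the KO arrays and -2.93, -3.02 and -1.68 on the WT arrays. Hoxd4, the only HoxD gene detected on all 6 arrays, had -3.09, -3.39 and -3.57 on the KO arrays and -3.83, -2.87 and -3.56 on the WT arrays. The differences within group 4 were 0.22 ± 0.24 for Hoxa4, -0.14 ± 0.31 for Hoxb4, -0.94 ± 0.45 for Hoxc4 and 0.07 ± 0.27 for Hoxd4. The Hoxc4 value had an adjusted p of 0.603 by limma.

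Groups 5 to 7 mark the lower neck and the upper chest. Hoxa5, which is needed in lung and airway development, had log2 levels of -0.82, -1.15 and -0.88 on the KO arrays, against -0.18, -0.88 and -0.06 on the WT arrays. WT 2 lay inside the KO range and the other WT arrays above it. The difference was -0.57 ± 0.24 with an adjusted p of 0.573 (limma). Hoxb5, which acts in the enteric neural crest, had -1.83, -0.07 and 0.33 on the KO arrays and -0.11, -0.04 and -0.15 on the WT arrays. Its SD was 1.15 among KO arrays and 0.06 among WT arrays (n = 3 each).

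Hoxc5 (chromosome 15, 102847783 to 102847842) had log2 levels of -4.49, -5.31 and -5.23 on the KO arrays, against -3.96, -4.16 and -2.90 on the WT arrays. All KO values lay below all WT values, and KO 2 and KO 3 were not well above background. The difference was -1.34 ± 0.37 with an adjusted p of 0.455 (limma). With normexp background correction, which lifts all signals by an offset of 50, it was -0.14.

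Hoxa6 had log2 levels of -1.97, -2.44 and -2.27 on the KO arrays and -2.27, -2.58 and -2.07 on the WT arrays. Hoxb6 (chromosome 11, 96162563 to 96162622) had -1.18, 0.60 and 0.70 on the KO arrays and 0.06, 0.16 and 0.35 on the WT arrays. Hoxc6 (chromosome 15, 102842243 to 102842302) had -3.55, -3.45 and -3.48 on the KO arrays and -2.78, -3.57 and -1.01 on the WT arrays. All 3 genes overlapped between the groups, with KO 1 lowest for Hoxb6 and WT 3 highest for Hoxc6. Their differences were 0.08 ± 0.20, -0.15 ± 0.47 and -1.04 ± 0.57.

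Hoxa7, which helps to pattern the upper chest, separated the groups on 6 arrays that were all well above background. Its probe at 52165626 to 52165685 of chromosome 6 had log2 levels of -0.28, -0.37 and -0.17 on the KO arrays, against 0.46, 0.35 and 1.38 on the WT arrays. The 3 KO arrays lay below every WT array, of which WT 3 was highest. The difference of -1.001 ± 0.28 had an unadjusted p of 0.00811 and an adjusted p of 0.456 (limma). It was -0.68 without WT 3 and -0.88 with normexp background correction. Hoxb7 had -2.48, -0.75 and -0.97 on the KO arrays and -0.91, -0.85 and -0.09 on the WT arrays, with a difference of -0.78 ± 0.46.

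**Figure D3:**
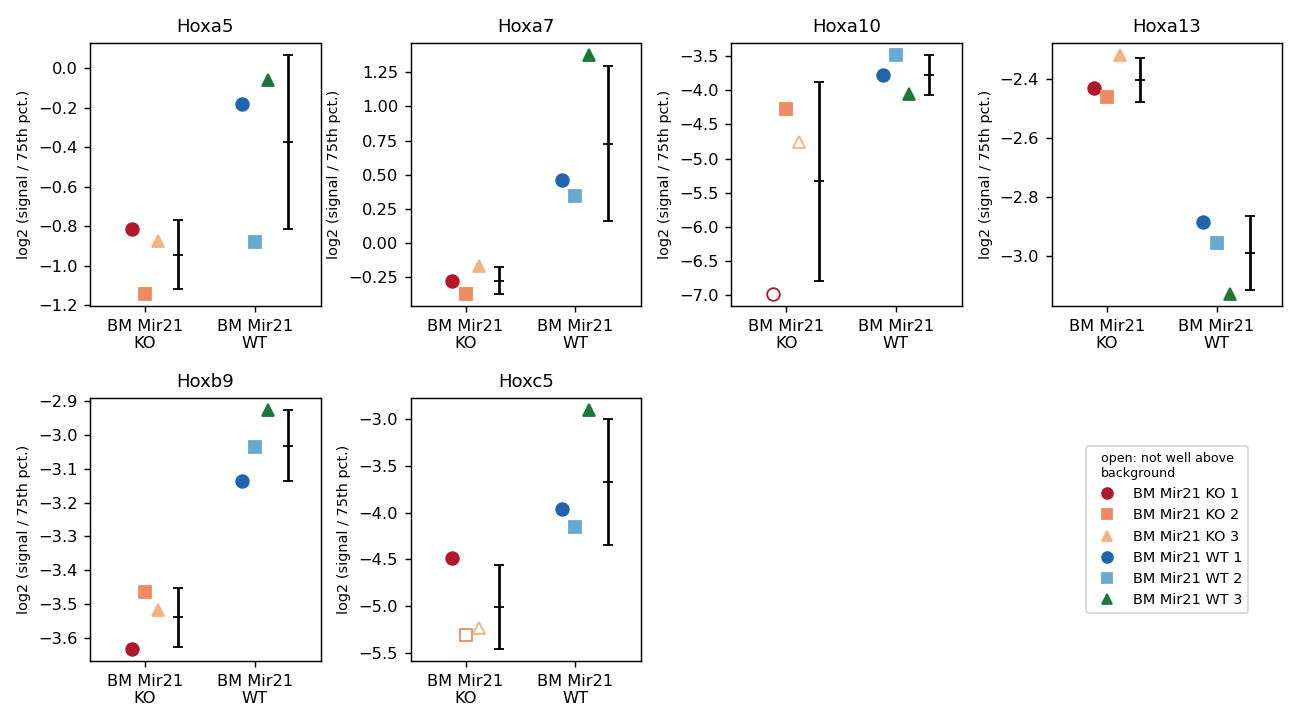
Log2 level relative to the array's 75th percentile (y axis, a separate scale per panel) of 6 of the Hox genes with an unadjusted p below 0.05, for each array of BM Mir21 KO (left) and BM Mir21 WT (right), with the group mean and SD (n = 3). Open symbols were not well above background. Hoxa5 alone overlaps between the groups.

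Of groups 8 and above, which are used from the chest to the tail, few genes were bright enough to compare. Hoxa9, a gene of blood progenitors, gave 0.21 ± 0.16 at its brighter probe and -0.20 ± 0.18 at the other. Its brighter probe had log2 levels of -2.33, -2.65 and -2.43 on the KO arrays and -2.76, -2.67 and -2.62 on the WT arrays. Hoxb9, known for patterning the ribs, had -3.63, -3.46 and -3.52 on the KO arrays, against -3.14, -3.04 and -2.93 on the WT arrays. The Hoxb9 groups did not overlap, and the difference of -0.51 ± 0.15 had an adjusted p of 0.468 (limma) and shrank to -0.04 with normexp background correction.

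Hoxd8 had log2 levels of -3.04, -5.64 and -5.33 on the KO arrays and -2.89, -3.72 and -3.39 on the WT arrays. KO 1 lay among the WT arrays, and the other KO arrays lay below them and were not well above background. The difference was -1.33 ± 0.64 over all arrays, 0.29 with KO 1 as the only KO array, and -2.15 without KO 1. The fit without KO 1 leaves out the only KO array well above background, and the probe passed the filter through the WT arrays alone. Its adjusted p there, 0.0865 (limma), is singled out as the lowest of any Hox gene under any setting tried. With normexp background correction and all arrays, the difference was -0.07.

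Hoxa10, which acts in the uterus and the lumbar region, had log2 levels of -6.99, -4.27 and -4.75 on the KO arrays, against -3.78, -3.48 and -4.06 on the WT arrays. Only KO 2 was well above background among the KO arrays, and the groups did not overlap. The difference of -1.56 ± 0.64 (adjusted p = 0.567, limma) was -0.74 without KO 1 and -0.08 with normexp background correction. For Hoxa10, Hoxc5 and Hoxd8, which were dim, the size of the difference thus depends on the background correction.

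Hoxa13, a gene of the digits and the urogenital tract, had log2 levels of -2.43, -2.46 and -2.32 on the KO arrays, against -2.89, -2.96 and -3.13 on the WT arrays. All KO arrays lay above all WT arrays, and the difference of 0.59 ± 0.15 had the smallest p among the Hox probes (unadjusted 0.00556, adjusted 0.438, limma). It was 0.38 with normexp background correction. This is the value of 1 of 2 probes, and whether that probe also binds other transcripts was not checked here. Hoxc12 had -3.63, -3.87 and -2.98 on the KO arrays and -4.09, -3.71 and -4.32 on the WT arrays, with a difference of 0.55 ± 0.27.

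Across the 25 probes, 2 had all KO values above all WT values, against 7.58% of all tested probes, and 4 had all KO values below all WT values, against 6.14%. Those above included Hoxa13, and those below were Hoxa7, Hoxa10, Hoxb9 and Hoxc5. Of those below, Hoxa10 and Hoxc5 passed the filter through the WT arrays alone, so the filter itself favoured that side for them. Within HoxA both directions occurred, with Hoxa13 above 0 and Hoxa5, Hoxa7 and Hoxa10 below 0.

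The HoxB probes stood apart on a single KO array. All 8 tested HoxB probes had their lowest value on KO 1, against 21.4% of all tested probes, and 6 of 8 their highest on KO 3, against 27.6%. The mean deviation of the HoxB probes from their own 6-array means was -0.98 on KO 1, 0.21 on KO 2 and 0.40 on KO 3, and between 0.05 and 0.22 on the WT arrays. The HoxA probes deviated on average by -0.24, -0.08 and 0.08 on the same KO arrays.

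**Figure D4:**
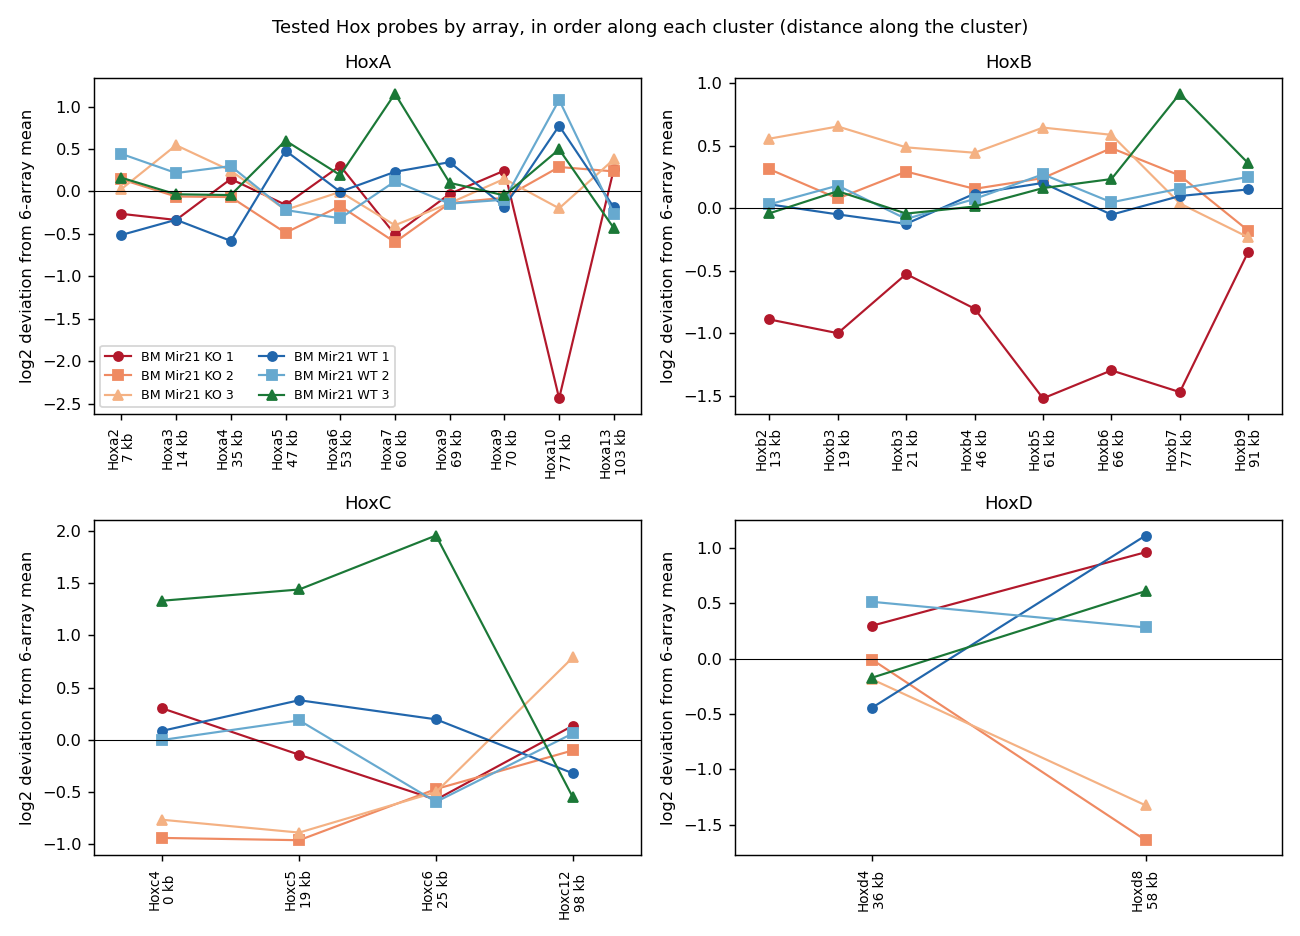
Deviation of 24 of the 25 tested Hox probes from their own means over the 6 arrays (log2, y axis), in order of distance in kb along the cluster (x axis), with 1 line per array. KO 1 lies below the other arrays at every HoxB probe, and WT 3 lies above them at Hoxc4, Hoxc5 and Hoxc6.

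Leaving out KO 1 turned the difference from below 0 to above 0 for 5 of the 7 tested HoxB genes. Without KO 1, Hoxb2 gave 0.43 ± 0.15 and Hoxb6 0.46 ± 0.16, against -0.01 and -0.15 with all arrays, and Hoxb3, Hoxb4 and Hoxb5 gave 0.28, 0.23 and 0.23. Hoxb7 and Hoxb9 stayed below 0 at -0.24 and -0.46. With KO 1 as the only KO array, the differences were -0.90 for Hoxb2, -1.09 for Hoxb3, -0.87 for Hoxb4, -1.73 for Hoxb5, -1.38 for Hoxb6, -1.86 for Hoxb7 and -0.60 for Hoxb9. That fit takes the lone KO array to vary like the WT arrays. The lowest adjusted p among these HoxB values was 0.200, for Hoxb5 (limma).

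**Figure D5:**
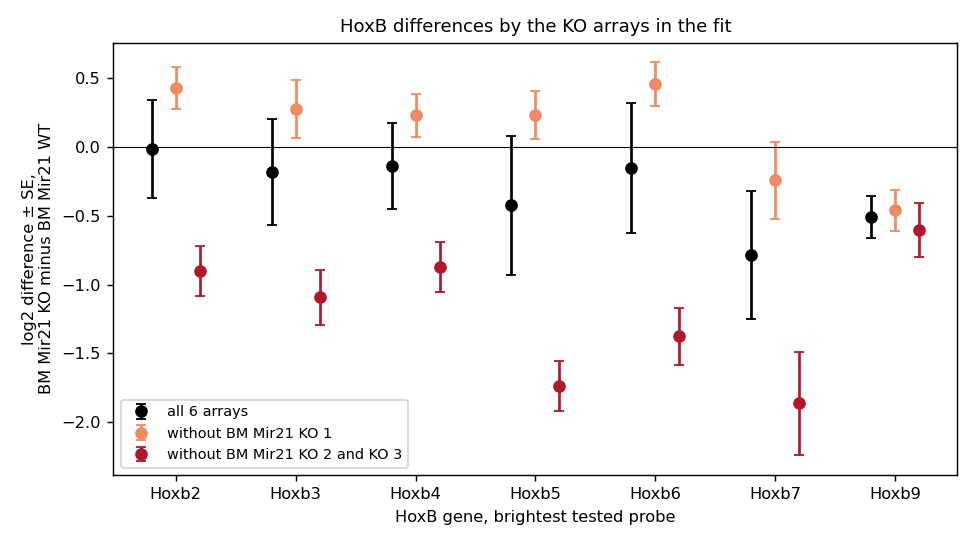
Difference in log2 level ± SE, BM Mir21 KO minus BM Mir21 WT, of the 7 tested HoxB genes with all 6 arrays, without KO 1, and without KO 2 and KO 3. The values of Hoxb2 to Hoxb6 lie above 0 without KO 1 and below it when KO 1 is the only KO array, while Hoxb9 stays between -0.60 and -0.46.

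In HoxC, a WT array stood apart. Of the 4 tested HoxC probes, 3 (Hoxc4, Hoxc5 and Hoxc6) had their highest value on WT 3, against 13.1% of all tested probes. The remaining probe, Hoxc12, had its lowest value there, at -4.32. The mean deviation of the 4 probes was 1.05 on WT 3, 0.08 on WT 1 and -0.09 on WT 2, and on the KO arrays it lay between -0.62 and -0.07. Without WT 3, the differences were -0.51 for Hoxc4, -0.95 for Hoxc5 and -0.32 for Hoxc6. WT 3 also had the highest value of Hoxa5, Hoxa7, Hoxb7 and Hoxb9, and it was the only array with Hoxb8 well above background. For Hoxa13, WT 3 was instead the lowest array, at -3.13.

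Marker RNA of the vessel wall and of other tissues also differed between the arrays. Markers of smooth muscle, endothelium and fibroblasts were well above background on all 6 arrays, 10 of 10 each. Smooth muscle markers deviated from their 6-array means by -0.20, 0.27 and 0.44 on the KO arrays and by -0.21, -0.01 and -0.28 on the WT arrays, and endothelial markers by 0.07, -0.12 and -0.43 on the KO arrays and by 0.21, 0.18 and 0.08 on the WT arrays. On the KO arrays the smooth muscle list ran in the same order as HoxB. So did the HoxA probes and, among the lists below, the TALE cofactors (-0.12, 0.13 and 0.18), the Trithorax genes and the arch factors. The order was thus not particular to smooth muscle. On the WT arrays the smooth muscle list did not follow HoxB, which deviated by 0.05, 0.12 and 0.22 on WT 1, WT 2 and WT 3. A link between the smooth muscle list and HoxB was not tested. The macrophage list ran from -0.58 (KO 3) to 0.92 (KO 2) on the KO arrays and from -0.51 to 0.17 on the WT arrays, and the skeletal muscle list from -0.27 to 0.14 on the KO arrays and from -1.44 (WT 2) to 2.05 (WT 1) on the WT arrays. White and brown adipocyte markers (10 of 10 each on all arrays) deviated from their 6-array means by 1.24 and 1.39 on KO 1, by -1.11 and -1.46 on KO 2 and by -2.39 and -2.71 on KO 3. On the WT arrays both lists lay between 0.22 and 1.31. The summed level of the white adipocyte list, as linear signal over the 75th percentile, ran from 76.9 to 789 on the KO arrays and from 448 to 889 on the WT arrays.

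Cardiac muscle markers, 10 of 10 on all arrays, deviated by 1.13, -0.83 and 0.87 on the KO arrays and by -0.55, -0.08 and -0.54 on the WT arrays. Mesothelial markers deviated by 1.17, -1.20 and 0.48 on the KO arrays and by 0.35, -1.26 and 0.47 on the WT arrays. By mean deviation, KO 1 had the highest values of the adipocyte, cardiac and mesothelial lists. White adipocyte deviations were 0.90 on WT 1 and 1.13 on WT 3. By summed level the white adipocyte list was highest on WT 3. Immature thymocyte markers were all detected in WT arches, 10 of 10, and in KO arches for 6 of 10. Over all named genes the shares were 77.6% in WT and 74.4% in KO arches. The thymocyte list deviated by 0.33, -0.84 and -0.28 on the KO arrays and by 0.22 to 0.34 on the WT arrays. In bulk tissue, fewer cells of a type and less RNA per cell cannot be told apart, and the part of these tissues, or of where the arch was cut, in the Hox values was not tested.

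The cofactors and regulators of Hox genes showed 0 adjusted calls in any of the lists examined (limma). All 11 TALE cofactors were tested, with 0 higher and 0 lower at an unadjusted p below 0.05 (4.44% and 4.27% of all tested probes) and a median difference of 0.16. Meis1 gave -0.03 ± 0.22, Meis2 0.00 ± 0.21 and Meis3 0.32 ± 0.15, and all 3 KO arrays lay above all 3 WT arrays for Meis3, as for 7.58% of all tested probes. Other members were Pbx2 at 0.03 ± 0.17, Pbx3 at 0.17 ± 0.24, Pbx4 at 0.23 ± 0.19, Pknox1 at -0.05 ± 0.15, Pknox2 at 0.31 ± 0.28 and Tgif2 at 0.31 ± 0.22.

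The Polycomb group keeps Hox genes silent and the Trithorax group keeps them active. Of 33 Polycomb genes tested, 0 were higher and 1 lower at an unadjusted p below 0.05, with a median of 0.01. The shares over all tested probes were those given above, and 1 of 33 is near them. That gene was Cbx8, a chromobox reader, at -0.40 ± 0.16, followed among those reported by Phc1 at -0.30 ± 0.17 and Suz12 at -0.26 ± 0.16. Of 19 Trithorax genes and demethylases of histone H3, 1 was higher and 0 were lower (4.44% and 4.27% of all tested probes), with a median of -0.0014. It was Kmt2a, a histone methyltransferase, at 0.37 ± 0.15. Setd1b gave -0.34 ± 0.15, Rbbp5 0.47 ± 0.21 and Kmt2d 0.93 ± 0.42.

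Of 19 retinoic acid genes 16 were tested, with 1 higher, 0 lower (4.44% and 4.27% of all tested probes) and a median of 0.07. Stra6, a membrane receptor for vitamin A transport, gave 0.43 ± 0.18, Dhrs3, which reduces retinal, 0.23 ± 0.15, Cyp26b1, which degrades retinoic acid, -0.36 ± 0.28 and Rxra 0.15 ± 0.17. Among the ParaHox and axial patterning genes 10 of 14 were tested, with 2 higher and 0 lower (4.44% and 4.27% of all tested probes) and a median of 0.23. Pdx1, a ParaHox gene of the pancreas, gave 0.85 ± 0.19 and Nr6a1, which acts in trunk patterning, 0.62 ± 0.23. The Pdx1 value rests on 1 dim probe, at -3.46, -3.21 and -2.94 on the KO arrays and -4.02, -4.25 and -3.91 on the WT arrays. Whether it also binds other transcripts was not checked here. Gmnn gave -0.98 ± 0.43 and Gsx2 0.49 ± 0.27.

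Of 29 arch, outflow tract and cardiac transcription factors 28 were tested, with 1 higher and 2 lower at an unadjusted p below 0.05 (4.44% and 4.27% of all tested probes) and a median of -0.05. Tcf21, a factor of epicardium and fibroblasts, was at -3.65, -3.52 and -3.93 on the KO arrays, against -4.50, -4.31 and -4.55 on the WT arrays. Dlx5, a homeobox gene of the pharyngeal arches, gave -0.72 ± 0.17 and Isl1, a marker of the second heart field, -0.68 ± 0.18, with an adjusted p of 0.418 for Dlx5 (limma). Eya1 gave -0.40 ± 0.21. The KO and WT arrays did not overlap for Tcf21, where KO was higher, as for 7.58% of all tested probes, or for Dlx5 and Isl1, where KO was lower, as for 6.14%.

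Noncoding transcripts of the clusters were measured for 4 of 20 listed names, and 2 could be tested. Hotair is transcribed between Hoxc11 and Hoxc12. Of its 5 probes, the one at 102774847 to 102774906 of chromosome 15 was well above background on all 6 arrays, with log2 levels of 0.66, 0.49 and 0.75 on the KO arrays and 0.39, 0.49 and 0.25 on the WT arrays. Whether that probe also binds other transcripts was not checked here. The remaining Hotair probes were flagged on no array except for a single probe on KO 1. Hoxa11os, the antisense transcript of Hoxa11, was flagged on all 6 arrays at -2.22, -2.49 and -2.19 on the KO arrays and -2.14, -2.18 and -1.96 on the WT arrays, although Hoxa11 itself was detected on no array.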

How the data were processed

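RNA of 6 aortic arches was read on 1-colour Agilent arrays (Cy3, 100 ng of RNA with an integrity number above 7.5). The deposited scanner files hold the processed signal, an intensity on a linear scale, which the authors' software, Feature Extraction 10.7.3.1, had background-subtracted, per the file headers. The deposited series table holds the same intensity values to within 0.497%. Values here are log2 processed signal minus each array's 75th percentile over 59305 non-control spots, without outlier spots and averaged per probe. For missing values 10 probes were set aside. A probe was tested where it was well above background on all 3 arrays of a group. KO minus WT differences are from limma 3.58.1 (lmFit, eBayes) under R 4.3.3. Tests are two-sided, adjusted by Benjamini-Hochberg over the 38339 probes tested, and the procedure was tested on simulated data. The brightest tested probe stands for a gene. The number of arrays limits the precision. The members and lists were chosen with earlier results of these data known. Hox genes are named, with values by array for those detected in both groups or with an unadjusted p below 0.05, and in the other lists up to 4 members with the smallest p and the Pbx, Meis and Pknox genes. The values of a few genes are not reported here. Motifs were counted in RefSeq windows of GRCm38.p6, while probe positions are on mm9, per the file headers.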

Additional observations from a re-analysis of the deposited data

How the results depend on the processing

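Over 18 alternative settings, 0 Hox probes passed the adjusted test in any, and the adjusted p of the Hox genes ran from 0.0865 (Hoxd8 without KO 1) to 0.9999 (limma). The sign of the difference was kept by 12 of 23 genes in every setting that tested them, and 11 changed it in at least 1. Hoxa10, Hoxc5 and Hoxd8 were not tested where all 6 arrays had to be well above background. Hoxb2 at 0.43 and Hoxb6 at 0.46 without KO 1 passed an unadjusted p of 0.05 with the opposite sign to that from all 6 arrays, and with each array left out they went down to -0.30 and -0.49 (without KO 3). The cause was not tested. The count at an unadjusted p below 0.05, 2 higher and 5 lower, was 2 lower with normexp, 1 higher with median centring, 1 higher and 3 lower with no filter on dim probes, 3 lower where all 6 arrays had to be well above background, and 1 higher and 8 lower without KO 2 and KO 3. Leaving out each array in turn gave 1 to 5 higher and 2 to 6 lower, with 5 higher without KO 1 and 2 lower without WT 3. The median difference of -0.15 was -0.44 without KO 2 and KO 3, and between -0.39 (without KO 3) and 0.055 (without KO 1) with each array left out. With the replicate number as a block there was 1 higher, 6 lower and 0 adjusted calls. The labels do not say whether the numbers pair the arrays. Deviations of same-numbered arrays correlated at 0.12, 0.05 and -0.28, and those of the other pairs ran from -0.38 to 0.39. Such correlations cannot show whether a pairing exists. The counts of detected Hox genes, 20 in KO and 23 in WT arches, were 29 and 31 with the looser flag for a positive and significant signal, 21 and 25 with at least 2 of 3 arrays and 17 and 20 where every probe had to be detected. Slide could not be a block, since there was 1 slide. Dim probes limit the sizes of Hoxa10, Hoxb9, Hoxc5 and Hoxd8, which normexp shrank to between -0.14 and -0.04. With normexp Hoxc4 was -0.31, Hoxc6 -0.45 and Hoxb7 -0.48, against -0.94, -1.04 and -0.78.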
